A study of Xenopus laevis with 6 samples.

Results

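Transcripts of *kdm5c* morphants were compared gene by gene with those of control embryos in the frog *Xenopus laevis*. The comparison rests on 4 RNA-seq libraries of the 6 in the series, with 2 libraries of *kdm5c* MO embryos and 2 of control embryos, all from whole embryos at NF stage 32. All 35773 gene models of the count table entered, of which 22620 carry a gene symbol and 13153 carry only an identifier. After a filter on low counts, 26152 models were tested, 20009 of them with a symbol. A model is called separated when both *kdm5c* MO libraries lay above both controls, or below both controls, in counts scaled to the library size (CPM) under 2 scalings alike, by TMM normalization and by the column total. Of the tested models with a symbol, 1972 were separated above and 3727 below. The *kdm5c* MO embryos had received an antisense morpholino oligonucleotide against *kdm5c*, which blocks translation and need not lower the mRNA. The labels place the injection at the 2-cell stage. Whether the control embryos of these libraries had been injected, and how many embryos went into a library, are not given in the sources used here. *kdm3a* MO embryos, with 2 libraries of the same stage whose labels carry a later date, are cited beside some genes. For them the knockdown and the later date cannot be told apart.

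KDM5C is a histone demethylase that removes methyl groups from di- and trimethylated lysine 4 of histone H3 (H3K4), a mark of active promoters and enhancers. In mammals it acts mainly at neuronal and germline genes, in part with the repressor REST and the repressive complex PRC1.6, and mutations of the human gene cause intellectual disability. *X. laevis* is an allotetraploid, so many genes have an L and an S copy on separate subgenomes, which were counted as separate models.

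The 4 libraries held between 12838245 and 14718840 counts, so that 3 counts, taken as the floor of detection, correspond to 0.204 to 0.234 CPM, which covers counting error only. Between 90.4% and 95% of the models with 1 to 20 counts had an even count. If each fragment was counted by both its ends, the counting error is larger than the counts imply. One library stood apart within each group. In *kdm5c* MO 1 the 100 most abundant models took 25.8% of the counts, against 17.2% to 18.7% in the other 3 libraries, and its TMM factor was 0.733, against 1.064 to 1.202. In control 1 both copies of the lens crystallin gene *cryba1* were at 0 counts. The L copy had 274 and 197 counts in *kdm5c* MO embryos and 483 in control 2. Across tested models, the log2 values of *kdm5c* MO 2 and control 2 correlated most closely (Pearson's r = 0.954), and those of *kdm5c* MO 1 and control 1 least (r = 0.796). The part of these library differences in the results below was not tested. The controls carry the numbers 1 and 2 in their titles, but 1 and 3 in their descriptions, and same-numbered pairs follow the titles.

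Under both scalings 2782 tested models (10.6%) lay above both controls in both *kdm5c* MO libraries, and 4675 (17.9%) lay below. TMM alone gave 4655 above and 4678 below, and the column total alone gave 2785 above and 7311 below. The median log2 fold change of all tested models was -0.02 after TMM and -0.34 by column total, so the direction of small differences depends on the scaling. By edgeR's exact test, 0 models (0%) passed an FDR below 0.01 with a fold change above 4, and 2 models (0.00765%) passed an FDR below 0.05. At an unadjusted p below 0.05 the test counted 860 models higher (3.29%) and 263 lower (1.01%) in *kdm5c* MO embryos, so that 76.6% of these were higher, whereas by column total the counts were 300 and 356 and the share was 45.7%. For the stricter limits the quasi-likelihood test of edgeR also gave 0 models and DESeq2 gave 7. With 2 libraries per group an exact permutation test of a single gene cannot go below a two-sided p of 0.333, so the tests reported here are those of models fitted across all genes. The p-values measure the spread between libraries, and nothing in the sources says that these came from separate clutches.

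The targeted gene itself was present at like levels in both groups. *kdm5c.L* had 138 and 124 TMM CPM in *kdm5c* MO embryos, against 111 and 105 TMM CPM in controls. *kdm5c.S* had 33.6 and 62.9 TMM CPM in *kdm5c* MO embryos, against 58.9 and 60.6 TMM CPM in controls. The libraries of the groups overlapped for the S copy, and for the L copy they did so by column total. The log2 fold changes were 0.28 ± 0.61 (SE) and -0.31 ± 0.64, with adjusted p = 1 for both. By column total that of the L copy was -0.06, so no direction can be given. For a morpholino that blocks translation these mRNA levels do not check the knockdown.

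Both copies of *rassf1* rose in *kdm5c* MO embryos, by about 13-fold, and they were the 2 models past an FDR of 0.05. RASSF1 is a scaffold protein with a Ras association domain that binds the MST kinases of the Hippo pathway, and the human gene is a tumour suppressor silenced in many cancers. *rassf1.S* had 169 and 81.5 TMM CPM in *kdm5c* MO embryos, against 10.7 and 8.62 TMM CPM in controls, with means of 125 ± 61.9 and 9.66 ± 1.47 TMM CPM (SD, n = 2 each). *rassf1.L* had 123 and 64.8 TMM CPM in *kdm5c* MO embryos, against 5.03 and 9.46 TMM CPM in controls, with means of 94.0 ± 41.3 and 7.25 ± 3.14 TMM CPM (SD, n = 2 each). The lowest *kdm5c* MO library lay 7.32-fold above the highest control for the S copy and 6.56-fold above it for the L copy, counted on TMM CPM plus 0.5. The log2 fold changes were 3.70 ± 0.67 (SE) for *rassf1.S* (adjusted p = 0.0231 by edgeR's exact test) and 3.69 ± 0.69 for *rassf1.L* (adjusted p = 0.0245). The call depended on single libraries, since without *kdm5c* MO 1 the adjusted p was 0.691 for *rassf1.S* and 1 for *rassf1.L*, and without control 1 it was 0.288 and 0.669. It was also lost by the quasi-likelihood test (0.99 for both) and by column total (0.0884 and 0.199), while the log2 fold change stayed between 3.06 and 4.22 under every alternative run.

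The rest of the RASSF family moved less. Of 18 tested models from 10 *rassf* genes, *rassf1* included, 5 were separated above and 3 below, and the copies of *rassf1* were the 2 with an unadjusted p below 0.05. The 5 above were both copies of *rassf1*, both of *rassf10*, and *rassf7.S*. Among all tested models 10.6% were above and 17.9% below. *rassf10*, a family member of the N-terminal type, had both copies above both controls. Its L copy had 23.1 and 12.1 TMM CPM in *kdm5c* MO embryos, against 6.25 and 7.48 TMM CPM in controls (log2 fold change 1.36, exact p = 0.0762). Of 62 tested models of a wider list of RASSF, Hippo and Ras pathway genes, 5 were above (8.06%) and 16 below (25.8%). Among those below was *amotl2.L*, which encodes a scaffold that binds YAP, with 8.63 and 23.4 TMM CPM in *kdm5c* MO embryos against 38.1 and 36.8 TMM CPM in controls (exact p = 0.0913). Apart from *rassf1*, no member of this list passed an FDR of 0.05.

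**Figure D1:**
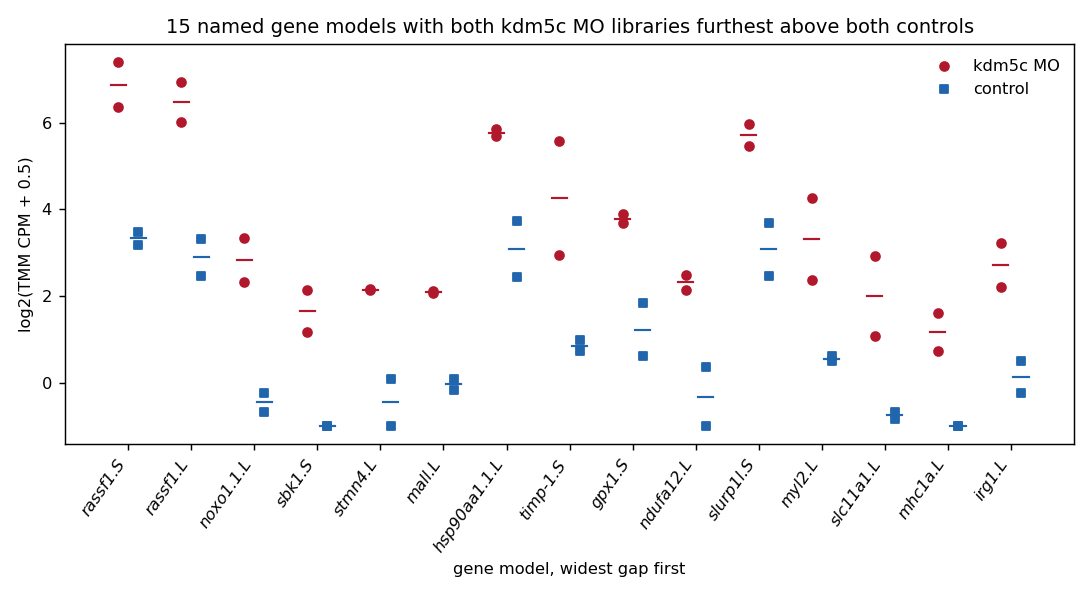
The 15 named gene models with the widest gap between the groups among those separated above, as log2(TMM CPM + 0.5) per library on the vertical axis. Circles are the kdm5c MO libraries, squares the controls, and lines the mean of 2 libraries. The circles lie above the squares in all 15 models because the models were chosen for it, and the gap runs from 7.32-fold for rassf1.S to 3.28-fold for irg1.L.

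The other models with the widest gaps above the controls included a chaperone gene, an oxidant defence gene and immune genes. All 15 shown in the plot of per-library values were chosen for their separation, had an unadjusted p below 0.05, and only the copies of *rassf1* passed an FDR of 0.05. *hsp90aa1.1.L*, a cytosolic HSP90 chaperone that in zebrafish is needed to fold muscle myosin, had 51.3 and 57.4 TMM CPM in *kdm5c* MO embryos, against 4.96 and 12.7 TMM CPM in controls. Both morphant libraries were alike after TMM, but by column total they had 37.5 and 61.2 CPM. The difference between the groups was 2.62 ± 0.69 on the log2 scale (SE, exact p = 0.000426, adjusted p = 0.593). *gpx1.S*, a glutathione peroxidase that reduces hydrogen peroxide, had 14.4 and 12.3 TMM CPM in *kdm5c* MO embryos, against 1.03 and 3.06 TMM CPM in controls (log2 fold change 2.70 ± 0.89, exact p = 0.00493, adjusted p = 1). Its L copy had 48.9 and 13.2 TMM CPM in *kdm5c* MO embryos, against 12.8 and 12.6 TMM CPM in controls, so there only *kdm5c* MO 1 stood out.

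*noxo1.1.L* encodes the organizer subunit of the superoxide-producing NADPH oxidase NOX1. It had 4.51 and 9.66 TMM CPM in *kdm5c* MO embryos, against 0.129 and 0.340 TMM CPM in controls. The controls held only 2 and 6 counts, and with counts halved to allow for read pairs the ratio was 30.9 with a 95% counting interval of 11.7 to 116 (exact p = 0.000146, adjusted p = 0.318). Its S copy was separated in the other direction, with 0.981 and 0.878 TMM CPM in *kdm5c* MO embryos against 1.1 and 2.32 TMM CPM in controls (log2 fold change -0.88, exact p = 0.487), and with the copies summed the log2 fold change of *noxo1.1* was 2.02, against 4.85 for *noxo1.1.L* alone. *slc11a1.L*, the metal transporter of macrophage phagosomes also called NRAMP1, had 7.06 and 1.61 TMM CPM in *kdm5c* MO embryos, against 0.129 and 0.0567 TMM CPM, or 2 and 1 counts, in controls. Its ratio of halved counts was 32.7, with an interval of 8.55 to 278. *mhc1a.L*, a class I antigen-presenting heavy chain, had 26 and 16 counts in *kdm5c* MO embryos, against 0 and 0 counts in controls, which is at least 10.2-fold higher when each control is set to a floor of 3 counts. *irg1.L*, which in mammals makes itaconate in activated macrophages, had 8.93 and 4.10 TMM CPM in *kdm5c* MO embryos, against 0.902 and 0.340 TMM CPM in controls (log2 fold change 3.38 ± 1.08, exact p = 0.00478, adjusted p = 1).

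Uneven levels between the morphant libraries were seen for *timp-1.S*, an inhibitor of matrix metalloproteinases, with 47.5 and 7.17 TMM CPM in *kdm5c* MO embryos and 1.16 and 1.47 TMM CPM in controls (exact p = 0.000128, adjusted p = 0.305). *myl2.L*, the regulatory light chain of cardiac and slow muscle myosin, had 18.8 and 4.68 TMM CPM in *kdm5c* MO embryos, against 0.902 and 1.02 TMM CPM in controls (exact p = 0.00144, adjusted p = 0.887). In both genes *kdm5c* MO 1 was the higher morphant library. *stmn4.L* and *mall.L* had nearly equal morphant libraries after TMM. *stmn4.L*, a neuronal stathmin that destabilizes microtubules, had 3.92 and 3.95 TMM CPM in *kdm5c* MO embryos, against 0 and 0.567 TMM CPM in controls (exact p = 0.0253). *sbk1.S*, a serine/threonine kinase gene, was at 40 and 24 counts in *kdm5c* MO embryos, against 0 and 0 counts in controls, or at least 15.6-fold higher against the floor. Its L copy was not separated, with 9.81 and 3.22 TMM CPM in *kdm5c* MO embryos against 0.258 and 4.42 TMM CPM in controls, and with the copies summed the log2 fold change was 1.97 (exact p = 0.167). *slurp1l.S* and *ndufa12.L*, a subunit of respiratory complex I, completed the 15.

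**Figure D2:**
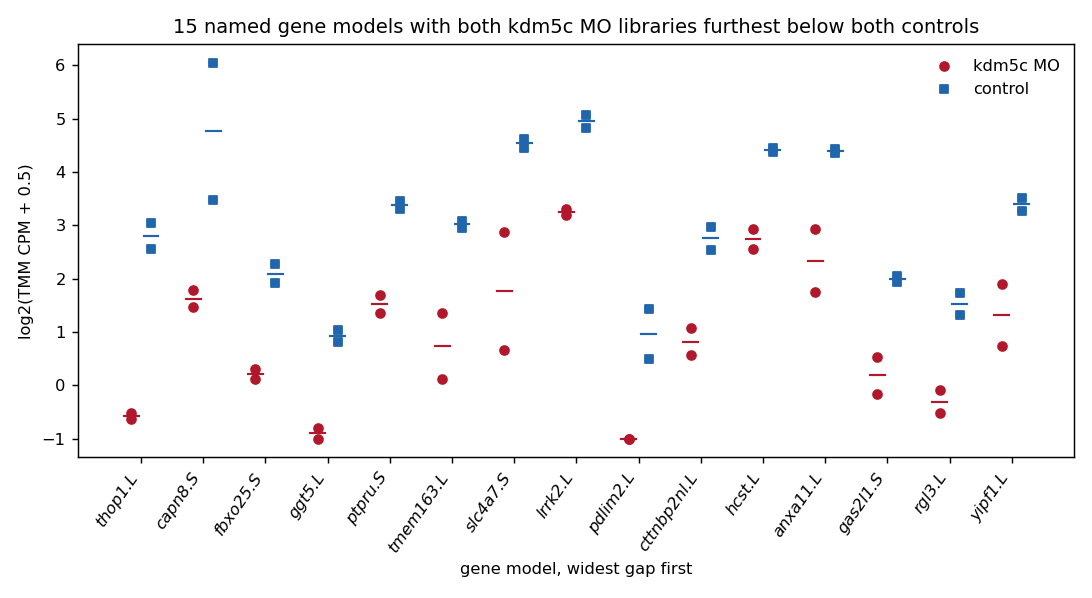
The 15 named gene models with the widest gap among those separated below, as log2(TMM CPM + 0.5) per library on the vertical axis. Circles are the kdm5c MO libraries, squares the controls, and lines the mean of 2 libraries. The circles lie below the squares in all 15 models because the models were chosen for it, with the widest gap, 8.4-fold, at thop1.L.

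Among models below the controls, *thop1.L* stood out. THOP1, the thimet oligopeptidase, cuts short peptides such as neuropeptides and antigenic peptides in the cytosol. *thop1.L* had 2 and 2 counts (0.196 and 0.146 TMM CPM) in *kdm5c* MO embryos, against 83 and 137 counts (5.35 and 7.77 TMM CPM) in controls. The control over *kdm5c* MO ratio of halved counts was 39.6 with a 95% counting interval of 10.7 to 331, and edgeR's exact test gave exact p = 5.7e-05 and adjusted p = 0.214. Summing the copies gave a log2 difference of 0.20, because the S copy did not follow, with 35.3 and 63.1 TMM CPM in *kdm5c* MO embryos and 22.6 and 49.2 TMM CPM in controls (log2 fold change 0.46 ± 0.70, exact p = 0.522). The L copy was also present in both *kdm3a* MO libraries, at 148 and 48 counts. It thus lay lower in the *kdm5c* MO libraries than in all 4 others.

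The other 14 models with the widest gaps below had unadjusted exact p-values up to 0.0495, and none of the 15 passed an FDR of 0.05. *capn8.S*, a calcium-dependent protease that in mice acts in the stomach, had 2.94 and 2.27 TMM CPM in *kdm5c* MO embryos, against 65.8 and 10.6 TMM CPM in controls (exact p = 0.000234, adjusted p = 0.437). Its controls differed from one another more than the morphant libraries did. *lrrk2.L*, a large kinase mutated in inherited Parkinson's disease, had 8.63 and 9.44 TMM CPM in *kdm5c* MO embryos, against 33.3 and 28 TMM CPM in controls (log2 fold change -1.76 ± 0.63, exact p = 0.007, adjusted p = 1). Here both groups were tight after TMM, with means of 9.04 ± 0.570 and 30.6 ± 3.72 TMM CPM (SD, n = 2 each). By column total it had 6.311 and 10.05 CPM in *kdm5c* MO embryos, against 35.33 and 33.56 CPM in controls.

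*ptpru.S*, a receptor tyrosine phosphatase of cell contacts, had 2.75 and 2.05 TMM CPM in *kdm5c* MO embryos, against 9.35 and 10.5 TMM CPM in controls (exact p = 0.0212). *hcst.L*, the DAP10 adaptor of immune receptors, had 5.40 and 7.17 TMM CPM in *kdm5c* MO embryos, against 21.5 and 20.3 TMM CPM in controls (exact p = 0.0149). *anxa11.L*, a calcium-dependent phospholipid-binding annexin, had 7.16 and 2.85 TMM CPM in *kdm5c* MO embryos, against 19.9 and 21.1 TMM CPM in controls (exact p = 0.0119). In each of these the groups lay at least 2.60-fold apart, the smallest gap among the 15. *slc4a7.S*, a sodium bicarbonate cotransporter, was lowest in *kdm5c* MO 1, with 1.08 and 6.8 TMM CPM in *kdm5c* MO embryos against 24.1 and 21.4 TMM CPM in controls (exact p = 0.012). *fbxo25.S*, a substrate adaptor of a ubiquitin ligase, had 0.589 and 0.732 TMM CPM in *kdm5c* MO embryos, against 4.32 and 3.29 TMM CPM in controls (exact p = 0.0313). *pdlim2.L*, which encodes a PDZ and LIM domain protein, was at 0 and 0 counts in *kdm5c* MO embryos, against 34 and 16 counts in controls, or at least 6.03-fold lower against the floor. *ggt5.L*, a gamma-glutamyl transferase, was at 0 and 1 counts in *kdm5c* MO embryos, against 24 and 22 counts in controls, a ratio of halved counts of 16.6 in favour of controls with an interval of 2.69 to 682. For several of these genes the other copy did not follow. *ggt5.S* had 2.16 and 15.8 TMM CPM in *kdm5c* MO embryos, against 1.35 and 15.7 TMM CPM in controls. *pdlim2.S* had 8.04 and 6.8 TMM CPM in *kdm5c* MO embryos, against 6.06 and 7.42 TMM CPM in controls. *anxa11.S* had 55.6 and 88.3 TMM CPM in *kdm5c* MO embryos, against 81.0 and 82.7 TMM CPM in controls. With the copies summed the log2 fold changes were -0.15 for *ggt5*, -0.18 for *pdlim2* and -0.43 for *anxa11*, against -2.04 for *anxa11.L* alone, and that of *fbxo25* was -1.19, against -2.51 for *fbxo25.S* alone.

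Over 4-fold differences in both same-numbered pairs, *kdm5c* MO 1 against control 1 and *kdm5c* MO 2 against control 2, were found in 38 models higher (0.145%) and 5 models lower (0.0191%). Of these 35 and 4 were also separated under both scalings. Symbols were given to 14 of the 38 and 3 of the 5. Beside genes already described, the higher ones were *adm.L*, *g0s2.L*, *il1b.S*, *ins.S*, *olfm4.L* and *znf330.L*, and the lower ones included *cyp11a1.S*, the enzyme that starts steroid hormone synthesis. *ins.S*, which encodes insulin, had 32 and 62 counts in *kdm5c* MO embryos, against 2 and 12 counts in controls (log2 fold change 3.21 ± 1.22, exact p = 0.0178, adjusted p = 1). *adm.L*, the vasodilator peptide adrenomedullin, had 3.33 and 6.66 TMM CPM in *kdm5c* MO embryos, against 0 and 0.793 TMM CPM in controls (exact p = 0.0331). The pair rule did not always mean separation. *il1b.S*, which encodes the inflammatory cytokine interleukin-1 beta, had 80.7 and 2.78 TMM CPM in *kdm5c* MO embryos, against 3.09 and 0.227 TMM CPM in controls, so *kdm5c* MO 2 lay below control 1. Nor was *cyp11a1.S* separated, with 14.8 and 2.63 TMM CPM in *kdm5c* MO embryos, against 120 and 12.2 TMM CPM in controls. There *kdm5c* MO 1 lay above control 2 after TMM. By column total *cyp11a1.S* had 10.83 and 2.804 CPM in *kdm5c* MO embryos, against 127.6 and 14.68 CPM in controls, so the scalings disagreed. *olfm4.L*, a secreted glycoprotein that marks intestinal stem cells in humans, spanned 809 and 66.4 TMM CPM in *kdm5c* MO embryos and 46.5 and 12.7 TMM CPM in controls.

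**Figure D3:**
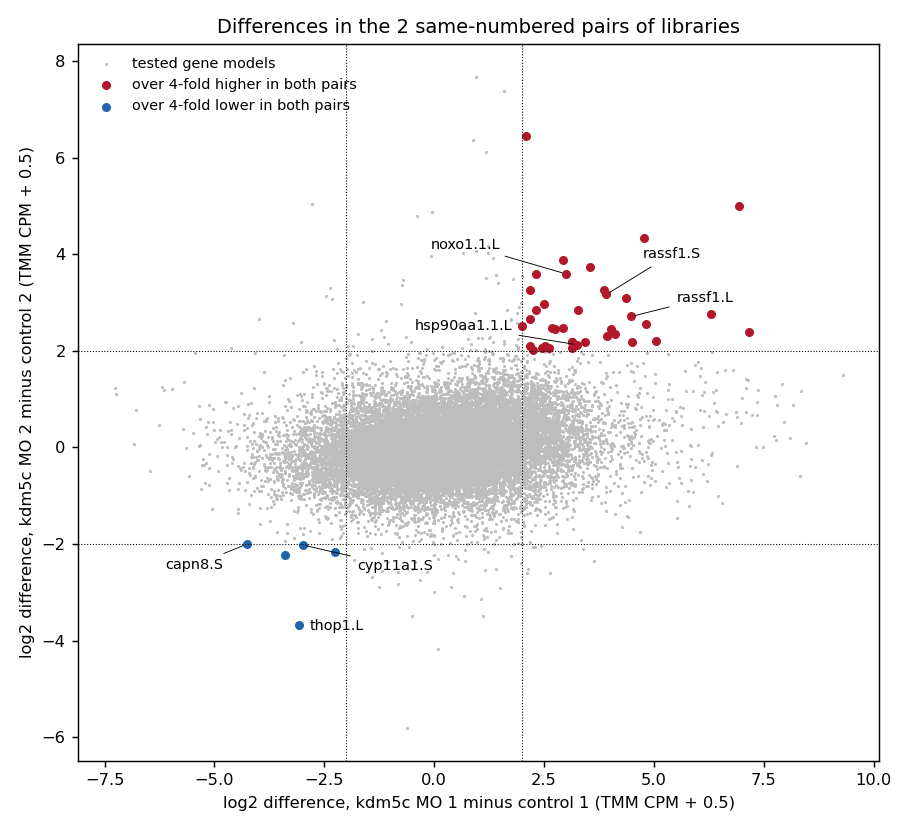
Log2 differences of TMM CPM plus 0.5 in the 2 same-numbered pairs, kdm5c MO 1 minus control 1 on the horizontal axis and kdm5c MO 2 minus control 2 on the vertical axis, for the 26152 tested models. Dotted lines mark 4-fold. The 38 models past it upward in both pairs and the 5 past it downward are coloured, and the cloud is wider along the horizontal axis than along the vertical.

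The L and S copies gave 2 readings of many genes. Among 7709 genes with both copies tested, 682 had the L copy and 698 the S copy separated above, and 332 had both, which is 48.7% of these L copies and 47.6% of these S copies, whereas 9.05% of all S copies and 8.85% of all L copies were above. Separated below were 1624 L copies and 1526 S copies, and both copies in 728 genes, which is 44.8% of these L copies and 47.7% of these S copies, with 21.1% of all L and 19.8% of all S copies below. In 30 genes the copies were separated in opposite directions. Reads of near-identical copies could be shared between them, so the copies are not independent measurements.

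Genes with both copies above, ordered by the narrower gap, were led by *rassf1*, *g6pc-like.1*, *stmn4*, *cox6a1*, *cox7b* and *prdx1*. *prdx1*, a peroxiredoxin that removes peroxides, had 286 and 168 TMM CPM from its S copy in *kdm5c* MO embryos, against 58.9 and 75.8 TMM CPM in controls (log2 fold change 1.75 ± 0.66, exact p = 0.0107). Its L copy had 74.9 and 63.0 TMM CPM in *kdm5c* MO embryos, against 9.86 and 23.0 TMM CPM in controls (log2 fold change 2.07 ± 0.68, exact p = 0.00367). *cox6a1* and *cox7b* encode small subunits of cytochrome c oxidase. *cox7b.S* had 85.3 and 51.0 TMM CPM in *kdm5c* MO embryos, against 19.3 and 17.4 TMM CPM in controls (log2 fold change 1.89 ± 0.62, exact p = 0.00366, adjusted p = 1). None but *rassf1* passed an FDR of 0.05.

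Genes with both copies below were led by *herc2*, *hcfc1* and *stag1*, which act on chromatin, DNA repair or chromosome structure. The first 10 such genes also held *dusp27*, *farp2* and *fmnl3*, and a function common to the 10 was not tested. *herc2.L*, a large ubiquitin ligase of DNA repair, had 13.3 and 25.1 TMM CPM in *kdm5c* MO embryos, against 61.9 and 63.8 TMM CPM in controls (log2 fold change -1.71 ± 0.64, exact p = 0.00992, adjusted p = 1). *hcfc1.S*, a host cell factor that joins H3K4 methyltransferase complexes, had 11 and 42.9 TMM CPM in *kdm5c* MO embryos, against 109 and 92.6 TMM CPM in controls (log2 fold change -1.90 ± 0.78, exact p = 0.0212). *stag1.L*, a cohesin subunit, had 30.3 and 33.1 TMM CPM in *kdm5c* MO embryos, against 77.2 and 61.2 TMM CPM in controls (log2 fold change -1.13 ± 0.60, exact p = 0.0662). None of these copies passed an FDR of 0.05. Of the 20 copies of the first 10 genes, 8 lay lower in the *kdm5c* MO libraries than in all 4 others. In 9 of the 20 both *kdm3a* MO libraries also lay below both controls by column total. *hcfc1.S* was 1 of these, with 10.7 and 67.2 CPM in *kdm3a* MO embryos, against 116 and 111 CPM in controls. The same share over all tested models is not given here, and the controls are shared, so 9 of 20 is a description only.

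**Figure D4:**
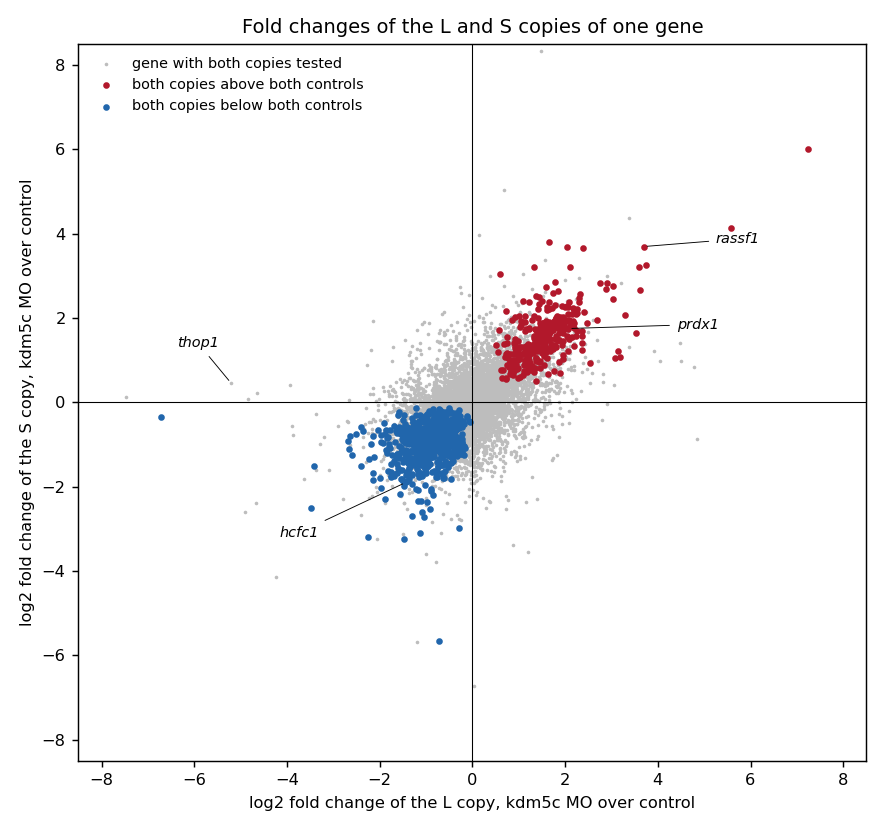
Log2 fold changes, kdm5c MO over control, of the L copy (horizontal axis) and the S copy (vertical axis) of 7709 genes with both copies tested. Red marks the 332 genes with both copies above both controls and blue the 728 with both below. Both copies of rassf1 lie near 3.70, while thop1 has a low L copy and an S copy at 0.46.

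Set beside the *kdm3a* MO libraries, 1060 tested models (4.05%) lay higher in both *kdm5c* MO libraries than in all 4 others and 1762 (6.74%) lay lower. These counts needed both scalings alike, with TMM here set over all 6 libraries, and the gaps were ranked on that TMM scale. The choice of examples in this comparison was made with the values in view. Those with the widest such gap above were *rassf1.S*, *rassf1.L* and *hsp90aa1.1.L*. By column total *hsp90aa1.1.L* had 37.5 and 61.2 CPM in *kdm5c* MO embryos, 6.53 and 18.5 CPM in *kdm3a* MO embryos, and 5.27 and 15.3 CPM in controls. *rassf1.S* had 124 and 86.8 CPM in *kdm5c* MO embryos, 19.0 and 15.2 CPM in *kdm3a* MO embryos, and 11.4 and 10.3 CPM in controls. The *kdm3a* MO libraries thus lay a little above the controls for *rassf1.S*, while for *hsp90aa1.1.L* their range overlapped that of the controls. *sult1e1.L*, a sulfotransferase that inactivates estrogens in mammals, had 5.16 and 6 CPM in *kdm5c* MO embryos, 0.693 and 0.450 CPM in *kdm3a* MO embryos, and 1.78 and 1.49 CPM in controls. Of the 15 models with the widest gap above the controls, 5 also lay above both *kdm3a* MO libraries, and in 10 both *kdm3a* MO libraries lay above both controls as well. Since both comparisons use the same controls and the share over all tested models is not given, this count is a description only.

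Gene groups were described by how many of their tested models were separated, read against the 10.6% above and 17.9% below among all models. The plot of shares by list shows 27 lists of genes fixed with earlier results of these data known and 3 more chosen after values were seen. By edgeR's exact test no member of any list but *rassf1* passed an FDR of 0.05.

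**Figure D5:**
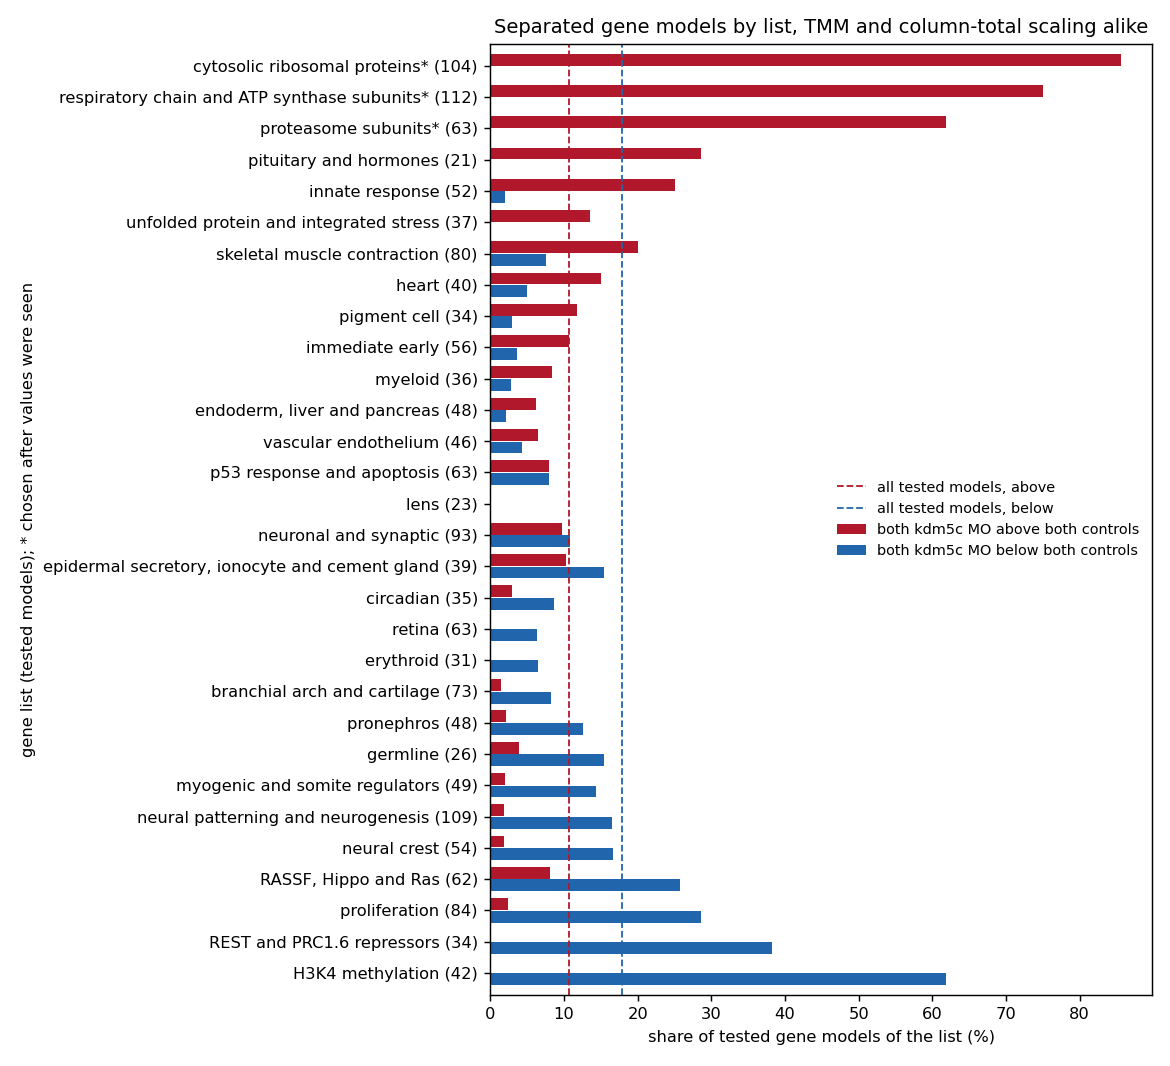
Share of the tested models of each gene list, in percent, with both kdm5c MO libraries above both controls (red) and below both controls (blue) under both scalings. Dashed lines give the same shares over all 26152 tested models, 10.6% above and 17.9% below, and the number of tested models is in brackets. H3K4 methylation genes reach 61.9% below and 0% above.

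Writers, erasers and cofactors of H3K4 methylation lay mostly below the controls. Of 42 tested models, 26 were separated below (61.9%) and 0 above, 4 had an unadjusted p below 0.05, and the median log2 fold change was -0.60 after TMM and -0.87 by column total. *setd1a.S*, a methyltransferase that trimethylates H3K4, had 3.04 and 9.37 TMM CPM in *kdm5c* MO embryos, against 23.1 and 19.1 TMM CPM in controls (log2 fold change -1.76 ± 0.79, exact p = 0.0342). *kmt2a.L*, the MLL1 methyltransferase, had 7.65 and 12.7 TMM CPM in *kdm5c* MO embryos, against 28.9 and 22.5 TMM CPM in controls (exact p = 0.054), and its S copy was also below. The list held its direction in each library pair, with a median difference of -0.77 in pair 1 and -0.27 in pair 2. By column total it took 0.0903% and 0.146% of all counts in *kdm5c* MO embryos, against 0.231% and 0.197% in controls. In *kdm3a* MO embryos the share was 0.142% and 0.191%, also below both controls, but *kdm3a* MO 4 lay only a little below control 2. A share below both controls was thus not particular to *kdm5c* MO embryos, by this narrow margin and by column total. REST and the PRC1.6 repressors, the partners named above, had 13 of 34 tested models below (38.2%) and 0 above, with a median log2 fold change of -0.33. Here the pairs were unequal, with a median difference of -0.61 in pair 1 and -0.09 in pair 2. The summed level was 1725 and 1604 TMM CPM in *kdm5c* MO embryos, against 2244 and 1571 TMM CPM in controls. After TMM both *kdm5c* MO libraries thus lay above control 2, and the groups overlapped. By column total this list took 0.126% and 0.171% of all counts in *kdm5c* MO embryos, against 0.238% and 0.188% in controls. In *kdm3a* MO embryos the share was 0.119% and 0.164%, so for this list too it lay below both controls. *rest.L* had 0.981 and 10.5 TMM CPM in *kdm5c* MO embryos, against 22.1 and 18.5 TMM CPM in controls (exact p = 0.101).

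Germline and neuronal genes, which include known targets of KDM5C in mammals, showed no common direction. Of 26 tested germline models, 1 was above and 4 below. Of 93 tested neuronal and synaptic models, 9 were above (9.68%) and 10 below (10.8%), and their median log2 fold change was 0.27 after TMM and -0.11 by column total. For this list the controls disagreed, with summed levels of 794 TMM CPM in control 1 and 2313 TMM CPM in control 2, against 2337 and 1922 TMM CPM in *kdm5c* MO embryos. The median difference was 1.12 in pair 1 and -0.24 in pair 2. With the controls this far apart, the separated counts cannot decide whether the neuronal genes changed. Among those above, *nefh.S*, a neurofilament subunit, had 36 and 12 counts in *kdm5c* MO embryos, against 0 and 2 counts in controls, a ratio of halved counts of 33.3 with an interval of 5.44 to 1370 (exact p = 0.00564). With the copies summed the log2 fold change of *nefh* was only 1.57. Among those below, *elavl3.S*, a neuronal RNA-binding protein gene, had 1.37 and 9.07 TMM CPM in *kdm5c* MO embryos, against 16.6 and 23.4 TMM CPM in controls (exact p = 0.0575). Neural patterning genes had 2 of 109 models above and 18 below (16.5%). *notch1.L* was among these, with 20.4 and 42.9 TMM CPM in *kdm5c* MO embryos against 84.4 and 78.2 TMM CPM in controls (exact p = 0.0457).

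For neural crest genes and the genes that the study names, the 2 controls disagreed. Of 54 tested neural crest models, 9 were below (16.7%) and 1 above. Among 43 tested copies of 23 genes that the study names, 31 had both *kdm5c* MO libraries below control 1 and 9 had both below control 2. Control 1 itself lay above control 2 in 33 of these 43 copies. The same counts over all tested models are not given here, so 31 and 9 describe only how the controls differed. Since the study examined these genes in the same embryos' condition, they are no independent choice. *sox10.L*, a transcription factor of migrating crest, had 8.93 and 14.3 TMM CPM in *kdm5c* MO embryos, against 38.9 TMM CPM in control 1 and 14.1 TMM CPM in control 2 (log2 fold change -1.19, exact p = 0.129). *sox8.S* was separated, but narrowly, with 6.87 and 7.39 TMM CPM in *kdm5c* MO embryos against 24.4 and 8.61 TMM CPM in controls (exact p = 0.144). *tfap2c.S*, which encodes an early crest and epidermal factor, differed against both controls, with 12.7 and 14.9 TMM CPM in *kdm5c* MO embryos and 33.2 and 30.8 TMM CPM in controls (log2 fold change -1.22, exact p = 0.0524). Its L copy ran the other way, with 61.5 and 27.2 TMM CPM in *kdm5c* MO embryos against 29.8 and 19.7 TMM CPM in controls (log2 fold change 0.84, exact p = 0.23), and the copies summed differed by 0.01 on the log2 scale. Retina genes had 4 of 63 models below and 0 above, and lens genes 0 of 23 in either direction. For the retina list the controls were closer to one another than the morphant libraries were. Its summed level was 545.9 and 921 TMM CPM in *kdm5c* MO embryos, against 843.8 and 774.7 TMM CPM in controls.

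Cell cycle genes were more often below than above. Of 84 tested models of the proliferation list, 24 were below (28.6%) and 2 above. The median log2 fold change was -0.22 after TMM and became 0.04 without control 1. The summed level was 4410 and 4040 TMM CPM in *kdm5c* MO embryos, against 5153 and 4183 TMM CPM in controls. After TMM *kdm5c* MO 1 thus lay above control 2, and the groups overlapped. By column total the list took 0.322% and 0.43% of all counts in *kdm5c* MO embryos, against 0.547% and 0.501% in controls. In *kdm3a* MO embryos the share was 0.263% and 0.375%, also below both controls. A lower share by column total was thus not particular to *kdm5c* MO embryos. *cenpe.S*, a kinetochore motor, had 13.3 and 26.0 TMM CPM in *kdm5c* MO embryos, against 45.8 and 48.1 TMM CPM in controls (exact p = 0.0578). The 2 above were *cdk1.S* and *pcna.L*. *pcna.L*, the sliding clamp of DNA replication, had 275 and 179 TMM CPM in *kdm5c* MO embryos, against 98.9 and 101 TMM CPM in controls (exact p = 0.0716). Of 63 tested models of p53 targets and apoptosis genes, 5 were above and 5 below, with medians of 0.17 after TMM and -0.15 by column total. Both directions thus held shares below those of all genes. *aen.L*, a p53-induced nuclease, had 21.1 and 20.9 TMM CPM in *kdm5c* MO embryos, against 7.74 and 8.5 TMM CPM in controls, so that both groups were tight (log2 fold change 1.37, exact p = 0.0455, adjusted p = 1). By column total it had 15.42 and 22.2 CPM in *kdm5c* MO embryos, against 8.217 and 10.19 CPM in controls. In *kdm3a* MO embryos it had 32.94 and 30.55 CPM, also above both controls.

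Innate response genes had 13 of 52 tested models above (25%) and 1 below, and 11 had an unadjusted p below 0.05. The summed level of the list was 4754 and 5722 TMM CPM in *kdm5c* MO embryos, against 942 and 2750 TMM CPM in controls. By column total the list took 0.348% and 0.609% of all counts in *kdm5c* MO embryos, against 0.1% and 0.33% in controls. By that scaling *kdm5c* MO 1 thus lay only a little above control 2. In *kdm3a* MO embryos the share was 0.682% and 0.548%, so both of these libraries also lay above both controls. In the next examples *kdm5c* MO 1 was much the higher morphant library. *tnfaip2.L*, a gene induced by tumour necrosis factor, had 169 and 2.49 TMM CPM in *kdm5c* MO embryos, against 0.258 and 1.13 TMM CPM in controls (exact p = 0.000431, adjusted p = 0.593). *socs3.L*, the feedback inhibitor of cytokine signalling, had 17.1 and 1.32 TMM CPM in *kdm5c* MO embryos, against 0.258 and 0.113 TMM CPM, or 4 and 2 counts, in controls (ratio of halved counts 44.5, interval 14.8 to 219). *cfb.L*, complement factor B, was even within each group after TMM, with 119 and 121 TMM CPM in *kdm5c* MO embryos and 62.5 and 64.5 TMM CPM in controls (log2 fold change 0.92, exact p = 0.136). By column total it was less even, with 86.85 and 128.8 CPM in *kdm5c* MO embryos against 66.35 and 77.32 CPM in controls. Of 36 myeloid marker models 3 were above and 1 below, and their summed level was 439 and 676 TMM CPM in *kdm5c* MO embryos against 561 and 701 TMM CPM in controls. In whole embryos, fewer cells of a type and less RNA per cell cannot be told apart.

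Hormone genes had 6 of 21 tested models above (28.6%) and 0 below, 2 of them with an unadjusted p below 0.05. The summed level of the list was 187.6 and 60.5 TMM CPM in *kdm5c* MO embryos, against 39.77 and 52.6 TMM CPM in controls. Thus *kdm5c* MO 2 lay only a little above control 2, and most of the higher level was in *kdm5c* MO 1. Both copies of *avp*, which encodes the antidiuretic hormone precursor, were above. *avp.S* had 7.85 and 1.17 TMM CPM in *kdm5c* MO embryos, against 0.129 and 0.567 TMM CPM in controls, that is 80 and 16 against 2 and 10 counts (exact p = 0.0218). Unfolded protein and integrated stress genes had 5 of 37 above (13.5%) and 0 below, with a median log2 fold change of 0.13 after TMM and -0.17 by column total. *ddit3.L*, the CHOP transcription factor of that response, had 16.7 and 6.29 TMM CPM in *kdm5c* MO embryos, against 3.09 and 3.29 TMM CPM in controls (log2 fold change 1.84, exact p = 0.047, adjusted p = 1). Its S copy had 0.981 and 1.76 TMM CPM in *kdm5c* MO embryos and 1.03 and 1.30 TMM CPM in controls, and did not follow.

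Skeletal muscle contraction genes had 16 of 80 models above (20%) and 6 below, with a median log2 fold change of 0.11 after TMM and -0.24 by column total. The list took 4.14% and 2.15% of all counts in *kdm5c* MO embryos, against 1.05% and 2.90% in controls, so the groups overlapped in its summed level. *tnni2.S*, fast troponin I, had 1508 and 578 TMM CPM in *kdm5c* MO embryos, against 113 and 402 TMM CPM in controls (log2 fold change 2.02, exact p = 0.0288). One of those below was *xirp1.L*, an actin-binding protein of muscle attachment sites, with 14.1 and 20.9 TMM CPM in *kdm5c* MO embryos, against 93.9 and 28.8 TMM CPM in controls (exact p = 0.0223). Heart genes had 6 of 40 above (15%) and 2 below, with medians of 0.38 after TMM and -0.04 by column total. Pronephros genes had 1 of 48 above and 6 below (12.5%), among them *lrp2.L*, the megalin receptor of the tubule, with 11.8 and 23.6 TMM CPM in *kdm5c* MO embryos against 43.9 and 48.1 TMM CPM in controls (exact p = 0.0387).

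Groups of housekeeping genes that were picked with their values in view lay mostly above the controls. Cytosolic ribosomal protein genes had 89 of 104 tested models above (85.6%), respiratory chain and ATP synthase genes 84 of 112 (75.0%), and proteasome genes 39 of 63 (61.9%), with 0 below in each. Their median log2 fold changes were 1.76, 1.73 and 0.91 after TMM and 1.29, 1.23 and 0.49 by column total. The pairs were unequal, with median differences of 2.44, 2.59 and 1.33 in pair 1 and 0.725, 0.545 and 0.396 in pair 2. Respiratory chain and ATP synthase genes took 1.37% and 1.06% of all counts in *kdm5c* MO embryos, against 0.393% and 0.917% in controls. Ribosomal protein genes took 9.97% and 5.59% of all counts in *kdm5c* MO embryos, 6.07% and 2.58% in *kdm3a* MO embryos, and 3.09% and 3.87% in controls. The share was highest in *kdm5c* MO 1, the library with the lowest TMM factor, and the *kdm3a* MO libraries lay on either side of the controls. Of the models in the ribosomal group 78 had an unadjusted p below 0.05 and 0 passed an FDR of 0.05. Transcript length was not examined.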

How the data were processed

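Poly(A) RNA of whole embryos was sequenced. The submitters' processing notes name BWA 0.7.10, while the paper's methods name a later version. Reads were mapped to cDNA models, and the authors deposited whole-number counts for each gene model, not normalized, with L and S copies apart. How read pairs and reads matching several models were counted is not given in the sources used here. Groups and replicate numbers came from the sample titles.

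From the counts, edgeR 4.0.16 in R 4.3.3 was used with filterByExpr, TMM normalization, classic dispersions and the exact test between the 4 libraries, with Benjamini-Hochberg adjustment over all 26152 models. The test and the limits (FDR below 0.01, over 4-fold) follow the study's methods. CPM used TMM library sizes or column totals. Gaps and pair differences used log2(CPM + 0.5). Low counts were halved, rounding up, for 95% counting intervals.

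Named models were copies of *kdm5c*, the 15 with the widest gap in each direction, those over 4-fold in both pairs, the first 10 genes with both copies separated in each direction, up to 4 members of each list and direction, and genes the study names. Genes and lists were chosen with earlier results of these data known. The test was also run on simulated counts with the same spread for every gene and no outlying library. Its outcome there is not given, and it does not show how the test performs in these data. Alternatives were other scalings, filters and tests (quasi-likelihood, DESeq2 1.42.0), summed copies, a pseudocount of 2 CPM, all 6 libraries in the fit, and each library left out. No sequence or position is given, and 1 gene that the rule names is not reported here.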

Additional observations from a re-analysis of the deposited data

Results flagged for a closer look

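Some genes over 4-fold higher in both *kdm5c* MO pairs were also above both controls in both *kdm3a* MO libraries, which the comparison did not use. By column total, the lower of the *kdm3a* MO libraries had 339.6 CPM for *olfm4.L*, 25.5 CPM for *il1b.S*, 16.7 CPM for *rassf1.L*, 15.2 CPM for *rassf1.S*, 10.9 CPM for *irg1.L*, 2.70 CPM for *adm.L*, 2.48 CPM for *noxo1.1.L*, 1.35 CPM for *stmn4.L* and 0.450 CPM for *sbk1.S*, each above the higher control. These libraries carry a later date in their labels, and the difference was not tested here. The share of all tested models with both *kdm3a* MO libraries above both controls is not given.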

How the results depend on the processing

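With FDR below 0.01 and over 4-fold, the count of 0 became 2 when each library had to hold 10 counts or more, 1 with L and S copies summed, 7 by DESeq2 and 2 with all 6 libraries in the fit, and ranged from 0 without *kdm5c* MO 1 to 205 without control 2. At an FDR below 0.05, the count of 2 became 0 by column total, 1 with summed copies, 0 by the quasi-likelihood test, 0 by that test with the replicate block and 21 by DESeq2, and ranged from 0 without *kdm5c* MO 1 to 357 without control 2. Models above both controls ranged from 4740 to 8109 and models below from 7697 to 10256 when a library was left out, since fewer libraries have to be separated, and those below numbered 7311 by column total. Models over 4-fold higher in both pairs numbered 19 under that count limit and 17 with a pseudocount of 2 CPM, and those lower 12 by column total and 3 and 1 under these settings. The cause of the other shifts was not tested. The log2 fold change of *kdm5c.L* was -0.0618 by column total, that of *kdm5c.S* was 0.0783 with summed copies and ranged from -0.908 without *kdm5c* MO 2 to 0.0546 without *kdm5c* MO 1, and with summed copies that of *tfap2c* was 0.0103 and that of *thop1* was 0.20. Summing also left -0.15 for *ggt5*, -0.18 for *pdlim2*, -0.43 for *anxa11*, -1.19 for *fbxo25*, 1.97 for *sbk1* and 2.02 for *noxo1.1*, each nearer to 0 than the named copy alone. The same held for *nefh* (1.57), *ndufa12* (1.68), *znf330* (1.02) and *slc4a7* (-1.35).

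The same-numbered libraries share only a number. Their deviations from the group means correlated at 0.242 (Pearson) and 0.21 (Spearman) across genes, and the replicate block gave 761 models higher and 320 lower at an unadjusted p below 0.05, against 684 and 201 without it in the same test. With 3 counts as the floor, differences in models below 0.204 to 0.234 CPM were not detectable.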
